A study of Mus musculus with 22 samples.

Results

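LSK cells that had lost both Chd8 and P53 (genotype Chd8-/-P53-/-, called DKO) were compared with wild-type (WT) LSK cells by RNA sequencing, with 3 libraries of each genotype. These 6 were taken by genotype label from the 12 RNA libraries of the study, among 22 samples in all. The other 6 RNA libraries, 3 lacking Chd8 alone (Chd8 KO) and 3 lacking P53 alone (P53 KO), entered the fit and serve here to show where DKO differs from a single loss. All mice were C57BL/6. The labels give injection of pI;pC, a double-stranded RNA mimic, as the way deletion was induced, in 1 protocol text shared by every sample, WT included. Cells were sorted 6 days after deletion and used without culture. The driver of the recombinase, the deleted exons, the age and sex of the mice and whether libraries came from separate mice are not given, so p-values measure the spread between these libraries, which may be technical.

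LSK cells are bone marrow cells that lack the surface markers of mature lineages and carry Sca-1 and Kit, a gate that holds the blood stem cells and the multipotent progenitors below them. CHD8 is an ATP-dependent chromatin remodeler of the chromodomain helicase family that binds at active promoters. P53 is the transcription factor that is stabilized by DNA damage and other stress and switches on genes of cell cycle arrest and cell death, among them Cdkn1a, Bax and Bbc3, and also Mdm2, the ligase that degrades it.

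The libraries matched their labels in part. Trp53, which encodes P53, stood at 17.1, 16.1 and 18.1 TPM (transcript abundance scaled to the same total in each library) in DKO, against 268, 264 and 230 TPM in WT. The groups lay far apart, with a difference of -3.82 ± 0.11 on the log2(TPM + 1) scale (standard error; adjusted p = 3.01e-08). All differences below are DKO minus WT on this scale unless another pair is named, and the added 1 understates the change of low genes. What remained in DKO was assigned mostly to 1 transcript, ENSMUST00000171247.7, which had 15.4, 11.9 and 14.1 TPM in DKO and next to nothing in WT. The main WT transcript, ENSMUST00000005371.11, had at most 2.39 TPM in DKO, against 166, 139 and 129 TPM in WT. Chd8 stood at 44.4, 34.8 and 44.1 TPM in DKO, against 67.4, 48.2 and 73.9 TPM in WT. The groups did not overlap, but the difference of -0.59 ± 0.18 missed the test (adjusted p = 0.078, and from 0.00503 to 0.226 over the alternatives). One of its transcripts, ENSMUST00000200169.4, had 10.6, 10.7 and 14.1 TPM in DKO, against 29.2, 22.5 and 29.0 TPM in WT. In Chd8 KO, Chd8 stood at 28.5, 26.2 and 35.6 TPM. DKO replicate 2 lay inside that range, and DKO replicates 1 and 3 lay above it. Without the position of the deleted part, the RNA level of Chd8 is only a partial check of the label.

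Markers of the gate were present in every library. Kit, the stem cell factor receptor, had 277, 247 and 295 TPM in DKO, against 268, 202 and 255 TPM in WT (0.18 ± 0.16, adjusted p = 0.54). Ly6a, which encodes Sca-1, had 104, 134 and 122 TPM in DKO and 122, 98.4 and 225 TPM in WT (-0.22 ± 0.30, adjusted p = 0.721, and 0.12 without WT replicate 3). Both groups overlapped for both genes, and 0 of 7 LSK gate genes passed by limma (0 also at an unadjusted p under 0.05). WT replicate 3 stood apart from the other WT libraries. The 4 Y-linked genes summed to 1.91, 2.03 and 1.80 TPM in DKO and to 126, 113 and 1.16 TPM in WT. In this measure WT replicate 3 was like the DKO libraries, and WT replicates 1 and 2 were not. Y-linked RNA, and with it the sex of the mice, is thus partly confounded with genotype in this comparison. Mature neutrophil and monocyte genes summed to 756, 779 and 641 TPM in DKO and to 628, 532 and 2210 TPM in WT. Mitochondrial transcripts took 6.03% to 6.27% of TPM in DKO and 5.33% to 6.97% in WT. The deposited TPM keep no read depth.

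Of 13162 genes tested, 688 changed between DKO and WT at an adjusted p under 0.05 (5.23%), of which 455 were higher (3.46%) and 233 lower (1.77%) in DKO. At least a 2-fold change was seen for 72 higher and 61 lower genes. The groups did not overlap for 687 of the 688, against 31.2% of all genes tested, and the test itself favours such genes. Chd8 KO against WT gave 2189 calls (16.6%; 9.65% higher and 6.98% lower) and P53 KO against WT gave 24 (0.182%; 0.076% higher and 0.106% lower); these comparisons share the WT libraries with the DKO comparison. Direct tests of DKO against Chd8 KO gave 1386 calls (10.5%) and of DKO against P53 KO 1957 (14.9%), though 2 of the 3 P53 KO libraries came from another run. The split between directions rested on the scaling. With median-of-ratios scaling, DKO was higher in 252 and lower in 380, and under quantile normalization 371 were higher and 341 lower, while the median of all genes was 0.09 in the main scaling, -0.0042 under the first and 0.03 under the second. The count of 688 was 283, 318 and 332 without DKO replicates 3, 2 and 1, 366 and 426 without WT replicates 1 and 2, and 803 without WT replicate 3. It was 247 with WT replicate 3 as the only WT library.

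**Figure D1:**
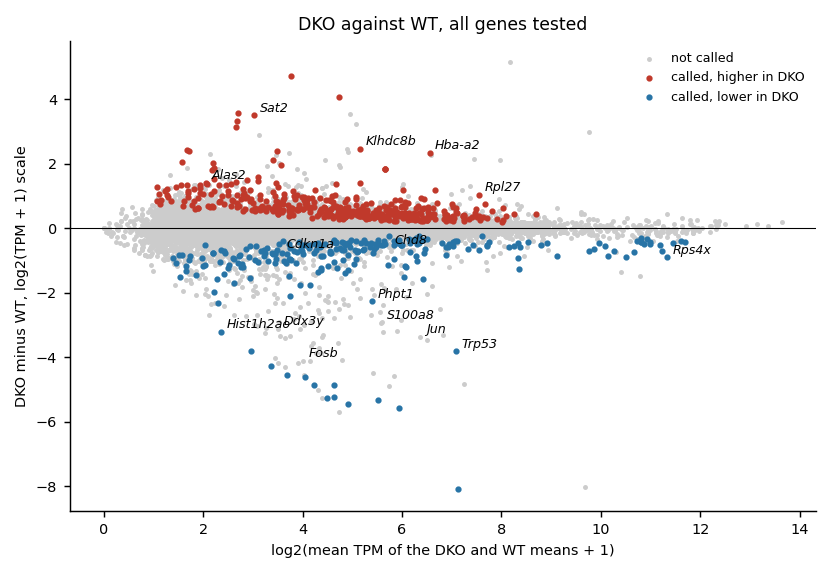
Difference between DKO and WT (vertical axis, log2(TPM + 1) scale) against mean level (horizontal axis, log2 of the mean of the DKO and WT means in TPM plus 1) for the 13162 genes tested, 1 point per gene. The 455 genes called higher and the 233 called lower are coloured, and the called points below Trp53 on the plot are antigen receptor segments and predicted genes.

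The largest rise among the genes named by size lay close to Trp53. Sat2, a gene of the spermidine and spermine acetyltransferase family (chr11:69621996-69624032, GRCm38), had 14.5, 11.3 and 16.2 TPM in DKO, against 0.383, 0.148 and 0.384 TPM in WT. It rose by 3.51 ± 0.17 (adjusted p = 3.42e-06) and lies at higher coordinates than Trp53 (chr11:69580348-69591873). Shbg, the sex hormone-binding globulin gene between them (chr11:69610282-69618026), had 4.229, 4.104 and 4.808 TPM in DKO and was listed at 0 in all WT libraries (adjusted p = 0.000109). Shbg was chosen after its values were seen. Both were also present in P53 KO, where Sat2 averaged 20.05 TPM and Shbg 4.55 TPM, while in Chd8 KO Sat2 averaged 0.071 TPM and Shbg was at 0. DKO differed from P53 KO in Sat2 by -0.49 ± 0.17 (adjusted p = 0.0721). Wrap53, Atp1b2 and Fxr2, also close by, were not called. Wrap53, next to Trp53, whose protein guides telomerase RNA, averaged 27.1 TPM in DKO and 23.2 TPM in WT (0.21 ± 0.08, adjusted p = 0.153). Atp1b2, a sodium pump subunit gene, averaged 19.2 TPM in DKO and 38.4 TPM in WT (-0.93 ± 0.51, adjusted p = 0.317). Fxr2, a fragile X family gene nearby, averaged 57.2 TPM in DKO and 55.0 TPM in WT (0.07 ± 0.14).

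Within 15 Mb of Trp53, 31 of 351 tested genes other than Trp53 were called (8.83%), against 39 of 690 on the rest of chromosome 11 (5.65%) and 676 of 12699 genes with a position (5.32%). The 15 Mb width was taken from an earlier look at these data. Close to Trp53, the macrophage glycoprotein gene Cd68 averaged 42.6 TPM in DKO and 22.6 TPM in WT (0.93 ± 0.23, adjusted p = 0.0454). Tnfsf12, which encodes the cytokine TWEAK, averaged 9.16 TPM in DKO and 4.89 TPM in WT (0.78 ± 0.17, adjusted p = 0.0248). Chd3, a CHD family subunit of the NuRD complex, had 63.1, 54.1 and 72.0 TPM in DKO, against 123, 95.1 and 107 TPM in WT. It fell by 0.77 on the log2 scale (SE 0.17, adjusted p = 0.0298), as did the overlapping transcript Chd3os (-0.76 ± 0.19), and without a stated strand the reads of the pair cannot be told apart. Cd68 lost the call when WT replicate 1 or 2 or any DKO library was left out, and Chd3 when WT replicate 1 or 3 or any DKO library was. Chd3 was the 1 called gene of the 9 CHD remodeler genes tested. Within 15 Mb of Chd8 on chromosome 14, 12 of 197 genes were called (6.09%), against 15 of 235 on the rest of that chromosome (6.38%).

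**Figure D2:**
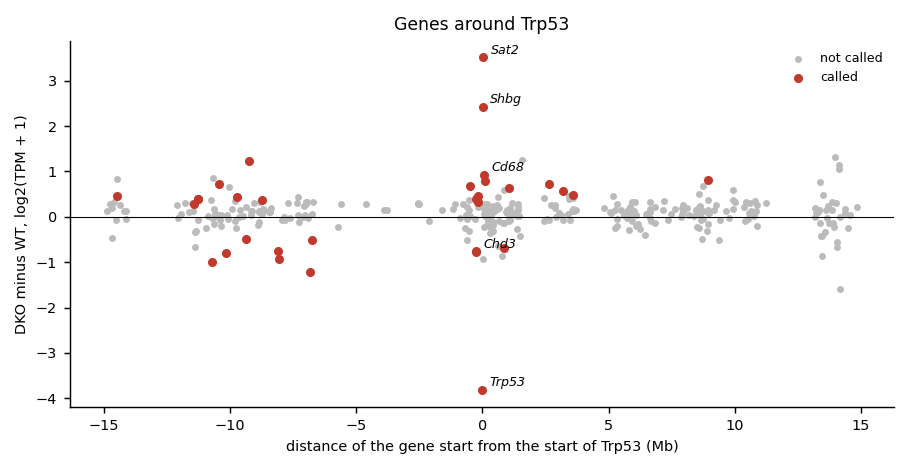
Difference between DKO and WT (vertical axis, log2(TPM + 1) scale) against the distance of each gene's start from the start of Trp53 (horizontal axis, Mb), 1 point per tested gene, called genes in red. Sat2 (3.51) and Shbg (2.43) stand highest and Trp53 (-3.82) lowest, all close to 0 Mb.

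No p53 target gene passed the test against WT in the main fit, though DKO stood below WT for some. Of 48 measured, 0 rose and 0 fell by limma (unadjusted p under 0.05 for 2 higher and 5 lower), with a median of -0.05 against 0.09 for all genes. Without WT replicate 3, 2 of them fell. DKO lay wholly below WT for 10 of the 48 and wholly above it for 7. Of all genes, 9.12% lay wholly below and 22.1% wholly above. Cdkn1a, the cell cycle inhibitor p21, had 8.10, 7.33 and 8.36 TPM in DKO, against 14.3, 12.8 and 13.9 TPM in WT. Its groups did not overlap, and the difference of -0.72 ± 0.32 did not pass (adjusted p = 0.215), although it did in the fit of the DKO and WT libraries alone (adjusted p = 0.024). Phlda3, whose protein holds back the kinase AKT, had 1.63, 1.99 and 1.27 TPM in DKO and 5.42, 5.55 and 2.39 TPM in WT (-0.999 ± 0.261, adjusted p = 0.0533). It passed without WT replicate 3 and in 5 other alternatives. Rrm2b, the p53-inducible ribonucleotide reductase subunit, averaged 13.8 TPM in DKO and 8.69 TPM in WT (0.62 ± 0.18, adjusted p = 0.0687). The p53-induced death genes Bax, Bbc3 and Pmaip1 did not pass either. Bax had 68.9, 79.0 and 70.8 TPM in DKO, against 87.9, 84.7 and 79.1 TPM in WT (-0.20 ± 0.10, limma adjusted p = 0.291). Its groups narrowly did not overlap. Bbc3, which encodes PUMA, had 7.14, 6.71 and 8.66 TPM in DKO, against 9.35, 8.85 and 8.30 TPM in WT (-0.22 ± 0.15, adjusted p = 0.422). Pmaip1, which encodes NOXA, had 3.64, 5.09 and 2.90 TPM in DKO and 1.46, 1.38 and 5.75 TPM in WT, with WT replicate 3 the highest of the 6 (0.49 ± 0.39, adjusted p = 0.499). Mdm2 averaged 47.0 TPM in DKO and 41.8 TPM in WT (0.18 ± 0.16, adjusted p = 0.545).

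The same genes set DKO apart from Chd8 KO in a direct test. Against Chd8 KO, 26 of the 48 targets were lower in DKO and 1 was higher, with a median of -0.82, where 4.21% of all genes were lower. Cdkn1a averaged 7.93 TPM in DKO and 177 TPM in Chd8 KO (DKO minus Chd8 KO -4.26 ± 0.32, adjusted p = 2.29e-05). Phlda3 averaged 1.63 TPM in DKO and 73.4 TPM in Chd8 KO (-4.81 ± 0.26, adjusted p = 1.84e-06). Bax averaged 72.9 TPM in DKO and 215 TPM in Chd8 KO (-1.54 ± 0.10), and Bbc3 averaged 7.50 TPM in DKO and 40.0 TPM in Chd8 KO (-2.27 ± 0.15). Against P53 KO, 2 targets were higher in DKO and 0 lower, where 11.2% of all genes were higher and 3.69% lower.

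**Figure D3:**
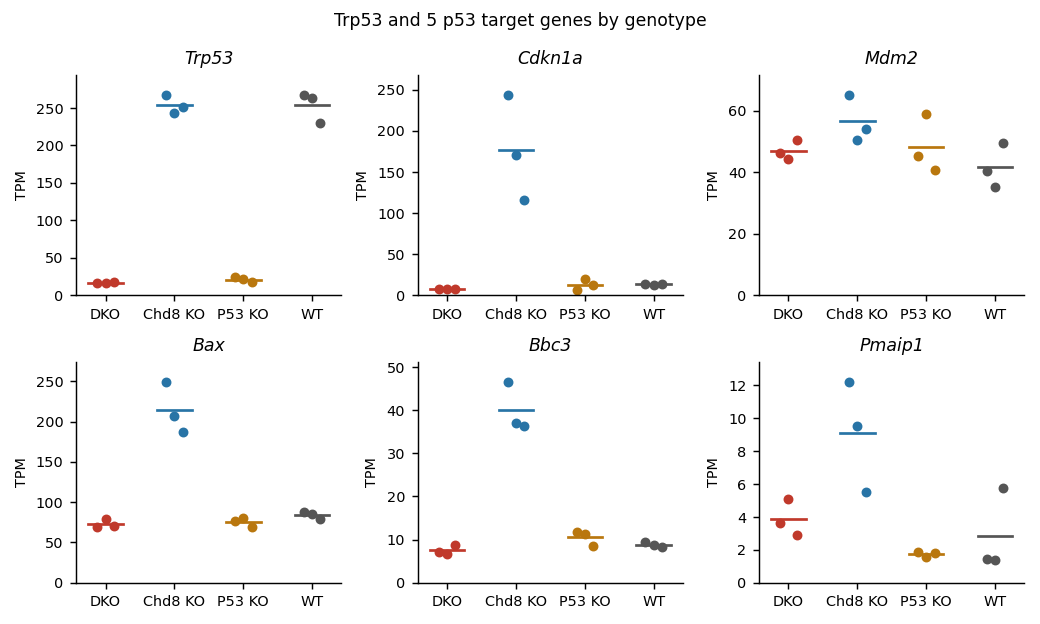
TPM (vertical axis, from 0) of Trp53 and 5 p53 target genes in DKO, Chd8 KO, P53 KO and WT, 1 point per library with the mean of 3 as a line. Cdkn1a, Bax and Bbc3 averaged 7.93, 72.9 and 7.50 TPM in DKO and 13.7, 83.9 and 8.83 TPM in WT. They lay far above both in Chd8 KO (177, 215 and 40.0 TPM).

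The other large rises fell into those that also differed from Chd8 KO and those that did not pass that test. Klhdc8b, a kelch-repeat protein of the midbody, had 59.6, 44.5 and 74.6 TPM in DKO, against 12.2, 9.20 and 8.03 TPM in WT (2.47 ± 0.23, adjusted p = 0.000423). Oplah, the 5-oxoprolinase of the glutathione cycle, had 13.9, 16.1 and 18.7 TPM in DKO, against 3.902, 2.701 and 2.298 TPM in WT (2.13 ± 0.20, adjusted p = 0.000423). Spa17, a sperm protein that binds protein kinase A anchors, had 17.5, 18.0 and 18.3 TPM in DKO, against 4.79, 4.45 and 2.56 TPM in WT (1.97 ± 0.20). Groups lay apart for all of these, and they kept the call under every alternative run. In Chd8 KO the means were 36.9 TPM for Klhdc8b, 14.0 TPM for Oplah and 21.0 TPM for Spa17, and DKO minus Chd8 KO was 0.67 ± 0.23, 0.21 ± 0.20 and -0.21 ± 0.20 (adjusted p = 0.0861, 0.532 and 0.538). In P53 KO they averaged 12.6, 3.37 and 4.17 TPM, and DKO was higher than P53 KO by 2.14 ± 0.23, 1.98 ± 0.20 and 1.89 ± 0.20, all past the test. Fam151b (1.59 ± 0.12), the organic anion transporter gene Abcc3 (1.53 ± 0.22), the meiotic histone methylation reader gene Zcwpw1 (1.37 ± 0.21) and the neurotrophic factor gene Cdnf (1.86 ± 0.27) also rose and did not differ from Chd8 KO past the test, with adjusted p from 0.116 for Fam151b to 0.903 for Abcc3. Each was higher in DKO than in P53 KO.

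In other genes that rose, DKO stood above Chd8 KO as well as above WT. C2cd4a, a gene of the C2 calcium-binding domain family, had 4.43, 13.9 and 13.7 TPM in DKO, against 0.0712, 0.0973 and 0 TPM in WT. It rose by 3.33 ± 0.36 (adjusted p = 0.000731) and exceeded Chd8 KO, which averaged 0.662 TPM, by 2.72 ± 0.36. Cda, the cytidine deaminase of pyrimidine salvage, had 3.07, 14.8 and 13.9 TPM in DKO, against 0.192, 0.141 and 0 TPM in WT (3.15 ± 0.49), and exceeded Chd8 KO by 2.305 ± 0.487. In both genes DKO replicate 1 was the lowest of the DKO libraries and still above every WT library. Arhgdig, a regulator of small GTPases (2.03 ± 0.23), Sfrp4, a secreted Wnt antagonist (1.82 ± 0.32), Bex4, an X-linked gene of the BEX family (1.40 ± 0.25), and Pbld1 (1.37 ± 0.31) rose as well, with DKO minus Chd8 KO of 1.61 ± 0.23, 2.48 ± 0.32, 1.41 ± 0.25 and 1.98 ± 0.31. Bex4 lost its call against WT without DKO replicate 2 or 3, and Pbld1 without WT replicate 1 or 2 or DKO replicate 2 or 3.

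**Figure D4:**
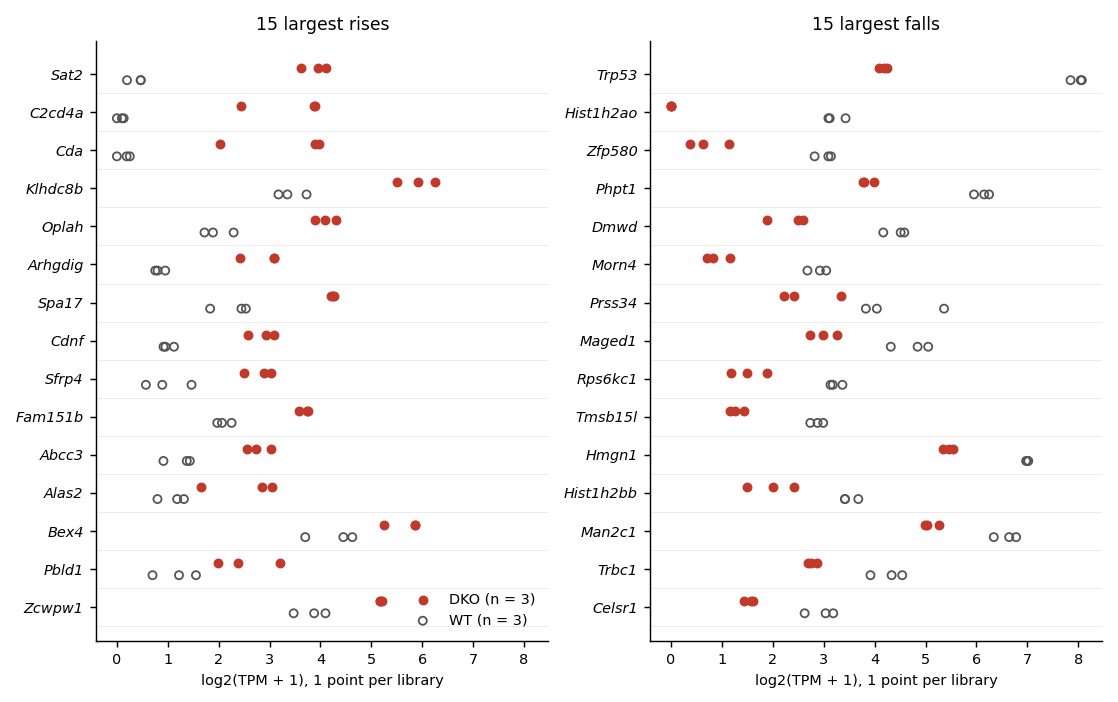
Level in log2(TPM + 1) (horizontal axis) of the 15 genes with the largest rises (left) and the 15 with the largest falls (right), 1 point per library, DKO filled and WT open. They were picked by the naming rule, which asks for groups that do not overlap, so no DKO point lies within the WT range of the same gene, and C2cd4a and Cda have 1 DKO library well below the other DKO libraries.

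The largest falls beyond Trp53 included Zfp580, Phpt1 and Dmwd. Phpt1, a phosphohistidine phosphatase, had 12.59, 12.76 and 14.96 TPM in DKO, against 75.0, 60.9 and 70.2 TPM in WT (-2.27 ± 0.17, adjusted p = 0.000109). Hmgn1, a nucleosome-binding protein that loosens chromatin, had 42.9, 45.3 and 39.6 TPM in DKO, against 128, 129 and 125 TPM in WT (-1.56 ± 0.14, adjusted p = 0.000385). Zfp580, a zinc finger gene, had 1.20, 0.296 and 0.536 TPM in DKO, against 7.82, 6.07 and 7.52 TPM in WT (-2.31 ± 0.22). The spread within each group was small beside these gaps. Man2c1, a cytosolic mannosidase (-1.50 ± 0.18), Rps6kc1, an S6 kinase-like protein (-1.71 ± 0.17), Morn4 (-1.99 ± 0.25), Tmsb15l, a thymosin beta gene (-1.59 ± 0.18), and the cadherin gene Celsr1 (-1.42 ± 0.16) fell too, and kept the call under every alternative run. Maged1, a MAGE family gene (-1.75 ± 0.34), lost it when WT replicate 1 or 2 or DKO replicate 1 or 2 was left out. For these genes the difference from Chd8 KO did not pass, with values from -0.36 ± 0.34 for Maged1 to 0.41 ± 0.17 for Phpt1. Against P53 KO each was lower in DKO, for example by 2.53 ± 0.17 for Phpt1 and 1.76 ± 0.14 for Hmgn1. Dmwd, a WD-repeat gene, had 5.05, 4.65 and 2.70 TPM in DKO, against 23.0, 21.8 and 17.0 TPM in WT (-2.09 ± 0.21). Unlike those genes it was lower than in Chd8 KO as well, where it averaged 15.2 TPM (DKO minus Chd8 KO -1.68 ± 0.21, adjusted p = 0.00124).

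Ribosomal protein genes changed in part, and mostly downward. Of 78 genes of cytoplasmic ribosomal proteins, 17 fell and 1 rose (23.1% called, against 5.23% of all genes), while the median of the list was -0.08 and turned to 0.01 under quantile normalization, where 8 fell and 6 rose. Rps4x, an X-linked gene of the small subunit, had 1713, 1828 and 1825 TPM in DKO, against 3567, 3232 and 3251 TPM in WT (-0.90 ± 0.07, adjusted p = 0.000109). Rpl29, of the large subunit, had 1014, 1029 and 981 TPM in DKO, against 1854, 2035 and 1761 TPM in WT (-0.90 ± 0.07). The groups were far apart at these high levels. Rpl37 (-0.86 ± 0.09) and Rpl24 (-0.70 ± 0.08) fell as well. Rpl27 went the other way, with 226, 270 and 253 TPM in DKO, against 133, 137 and 97.7 TPM in WT (1.03 ± 0.11, adjusted p = 0.000731). Its rise was carried by transcript ENSMUST00000077856.12, with 145, 173 and 160 TPM in DKO, against 31.0, 29.3 and 26.4 TPM in WT. Its transcript ENSMUST00000107249.7 had 71.4, 89.7 and 82.8 TPM in DKO and 87.1, 96.7 and 58.3 TPM in WT, and overlapped. None of these 5 differed from Chd8 KO past the test, with adjusted p from 0.436 to 0.804, and all differed from P53 KO. Across the list, 4 genes were higher and 0 lower in DKO than in Chd8 KO, where 6.32% of all genes were higher and 4.21% lower. Beside P53 KO, 1 was higher and 42 were lower in DKO, where 11.2% of all genes were higher and 3.69% lower. These genes took 16.2% to 16.8% of TPM in DKO, 16.7% to 18.6% in WT and 20.2% to 23.2% in P53 KO. DKO and WT overlapped in this share, and 2 of the 3 P53 KO libraries came from another run. The 17 falls were 8 without DKO replicate 1 or 2, 10 without WT replicate 1, 21 without WT replicate 3 and 5 with WT replicate 3 as the only WT library. These genes have many processed copies, so their exact levels are uncertain.

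Transcripts of replication-dependent histone genes stood lower in DKO. Of 56 tested, 8 fell and 0 rose (14.3% called, against 1.77% of all genes lower), the difference was below 0 for 51, and the median was -0.67. The groups did not overlap for 28 of them, with DKO lower, against 9.12% of all genes. By class, the median ran from -0.60 for 5 H1 genes over -0.65 for 8 H3, -0.67 for 17 H2A and -0.71 for 15 H2B genes to -0.83 for 10 H4 genes. The summed level of the 70 genes in the files was 277, 279 and 321 TPM at the lowest, middle and highest DKO library, against 449, 474 and 489 TPM in WT, without overlap. Hist1h2bb had 3.01, 1.82 and 4.32 TPM in DKO, against 9.68, 11.8 and 9.68 TPM in WT (-1.53 ± 0.20, adjusted p = 0.0021), and was lower than in Chd8 KO too (-1.11 ± 0.20, adjusted p = 0.00721). Hist1h2bk averaged 5.49 TPM in DKO and 12.3 TPM in WT (-1.02 ± 0.19), and Hist1h2bj averaged 7.43 TPM in DKO and 16.1 TPM in WT (-1.07 ± 0.21). Hist1h2bk lost its call without WT replicate 1 or 2 or DKO replicate 2 or 3, and Hist1h2bj without WT replicate 1 or 2. Hist1h2ao was listed at 0 in all DKO libraries, against 7.68, 9.77 and 7.53 TPM in WT (adjusted p = 0.00198). Most replication-dependent histone mRNAs carry no poly(A) tail, and many of these genes are near-identical in sequence, so single members are uncertain. The 8 falls were 4 without WT replicate 1 or DKO replicate 2 or 3, 2 without WT replicate 2, 10 without WT replicate 3 and 0 with WT replicate 3 as the only WT library. Under median-of-ratios scaling they were 14. The enzymes around replication gave fewer calls: of 50 DNA replication genes 2 fell, Ung, the uracil-DNA glycosylase (-0.65 ± 0.11), and Gins1, of the replicative helicase (-0.48 ± 0.10), and 8 fell under either other scaling. The count was 1 without WT replicate 1 or 3 or DKO replicate 1 or 3 and 0 with WT replicate 3 as the only WT library, beside 1.77% of all genes called lower. In the fit of the 10 libraries of 1 run 8 of the 50 fell, where 328 of all 13162 genes fell. Gins1 lost its call without WT replicate 1 or 3 or DKO replicate 1 or 3. Of 46 G2 and mitosis genes 0 changed by limma (unadjusted p under 0.05 for 4 lower and 0 higher; median -0.13).

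The upstream sequences of the 3 called H2B genes are given because they fell together and H2B promoters are known for an octamer element, the site of the POU factor OCT1. They run 5′ to 3′ over the 250 bases before the gene start, from RefSeq on GRCm38.p6, with any match to ATTTGCAT on either strand in capitals.
Hist1h2bb, chr13:23746484-23746733, plus strand: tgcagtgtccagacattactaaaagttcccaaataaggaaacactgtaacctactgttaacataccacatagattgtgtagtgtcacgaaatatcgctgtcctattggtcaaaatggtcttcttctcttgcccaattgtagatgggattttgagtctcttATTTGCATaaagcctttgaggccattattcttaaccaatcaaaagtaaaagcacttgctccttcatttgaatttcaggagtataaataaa
Hist1h2bk, chr13:22035571-22035820, plus strand: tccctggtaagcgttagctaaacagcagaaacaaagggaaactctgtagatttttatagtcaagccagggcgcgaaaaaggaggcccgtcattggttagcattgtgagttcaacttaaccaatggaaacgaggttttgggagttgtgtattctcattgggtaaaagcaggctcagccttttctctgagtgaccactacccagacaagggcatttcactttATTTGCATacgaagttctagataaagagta
Hist1h2bj, chr13:22042948-22043197, plus strand: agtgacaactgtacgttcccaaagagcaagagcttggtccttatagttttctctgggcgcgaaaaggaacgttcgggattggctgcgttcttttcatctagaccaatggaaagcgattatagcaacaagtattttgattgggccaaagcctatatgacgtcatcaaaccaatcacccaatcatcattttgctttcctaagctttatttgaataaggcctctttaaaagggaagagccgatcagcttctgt
Hist1h2bb and Hist1h2bk held the octamer and Hist1h2bj did not. Of the 13 tested H2B genes with a promoter in the table, 6 held it, against 1.6% of 32851 promoters in the same window. A match of letters is no evidence of binding here.

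Of 34 erythroid genes 3 rose and 0 fell in DKO (8.82% called, against 3.46% of all genes higher), and 28 had a difference above 0. The median of 0.44 was 0.09 without WT replicate 3, where the median of all genes was 0.11. In bulk samples such as these, more or fewer cells of a type and more or less RNA per cell cannot be told apart. Alas2, the first enzyme of heme synthesis in red cells and the 1 called gene of 14 heme synthesis genes, had 2.13, 6.26 and 7.24 TPM in DKO, against 1.27, 0.738 and 1.49 TPM in WT (1.42 ± 0.34, adjusted p = 0.0375). Trim10, a ring finger gene of erythroid cells, had 2.76, 3.07 and 4.98 TPM in DKO, against 0.907, 1.02 and 0.475 TPM in WT (1.34 ± 0.26, adjusted p = 0.0141). Hba-a2, an alpha globin gene with a near-identical copy, had 40.5, 192 and 248 TPM in DKO, against 41.7, 18.7 and 16.8 TPM in WT (2.35 ± 0.60, adjusted p = 0.0477). DKO replicate 1 lay within the WT range for Hba-a2, and the call was lost in 16 of 21 alternatives. Globin transcripts in all summed to 174, 812 and 1051 TPM in DKO, against 175, 78.8 and 77.7 TPM in WT, and overlapped by DKO replicate 1. The 34 erythroid genes in the files summed to 2369, 2592 and 3787 TPM in DKO and to 2544, 2839 and 1628 TPM in WT, and overlapped. Alas2 lost its call without WT replicate 1 or 2 or DKO replicate 2 or 3, and Trim10 without DKO replicate 3. The count of 3 was 6 without DKO replicate 1, 1 without DKO replicate 2 or WT replicate 2, 0 without DKO replicate 3 and 0 with WT replicate 3 as the only WT library. Against Chd8 KO, 28 of the 34 were higher in DKO and 0 lower (median 2.51), where 6.32% of all genes were higher. Of 22 megakaryocyte and platelet genes, 0 changed against WT by limma (0 in either direction at an unadjusted p under 0.05; median 0.14). Ppbp, a platelet chemokine gene, had 1.764, 2.3 and 23.71 TPM in DKO and 1.19, 1.73 and 1.44 TPM in WT, so DKO replicate 3 was far above the other libraries.

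The sequences before the starts of the 3 called erythroid genes are shown because GATA1, the master factor of red cells, binds letters that read AGATAA or TGATAA. They come from RefSeq on GRCm38.p6, read 5′ to 3′, with matches on either strand in capitals, each over the 250 bases before the start in the promoter table except that of Trim10, which is cut to 172 bases because the annotated gene overlaps the end of that window.
Alas2, chrX:150547167-150547416, plus strand: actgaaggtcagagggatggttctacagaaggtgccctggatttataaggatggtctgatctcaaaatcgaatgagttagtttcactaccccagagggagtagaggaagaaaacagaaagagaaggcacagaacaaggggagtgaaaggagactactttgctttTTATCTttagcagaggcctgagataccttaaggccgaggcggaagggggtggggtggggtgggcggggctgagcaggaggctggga
Hba-a2, chr11:32296242-32296491, plus strand: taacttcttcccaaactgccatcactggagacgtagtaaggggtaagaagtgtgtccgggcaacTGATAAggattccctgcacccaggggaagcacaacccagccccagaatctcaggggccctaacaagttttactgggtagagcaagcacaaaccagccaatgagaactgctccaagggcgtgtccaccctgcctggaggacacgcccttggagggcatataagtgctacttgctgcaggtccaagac
Trim10, chr17:36869324-36869495, plus strand: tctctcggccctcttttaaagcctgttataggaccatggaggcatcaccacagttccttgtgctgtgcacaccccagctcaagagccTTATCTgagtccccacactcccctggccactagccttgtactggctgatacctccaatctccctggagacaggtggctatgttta
Each printed sequence held 1 match. Over the full 250 bases, 16 of the 26 tested erythroid genes with a promoter in the table held at least 1, against 16.6% of all promoters. That share covers called and uncalled genes alike. A match of letters is no evidence of binding here either, and a link to the rises was not tested.

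Of 17 T and NK cell genes tested, 5 fell and 0 rose (29.4% called, against 1.77% of all genes lower), with a median of -0.22 that was -0.009 without WT replicate 3. Trbc1, a constant region gene of the T cell receptor beta chain, had 5.76, 5.50 and 6.31 TPM in DKO, against 22.3, 14.1 and 19.2 TPM in WT (-1.49 ± 0.18, adjusted p = 0.00119), and kept the call under every alternative run. Tcf7, the transcription factor TCF1 of early T cells, had 3.48, 3.12 and 2.99 TPM in DKO, against 10.85, 7.995 and 7.582 TPM in WT (-1.21 ± 0.20, adjusted p = 0.00656). Lck, the kinase of the T cell receptor, averaged 13.04 TPM in DKO and 30.89 TPM in WT (-1.18 ± 0.25), Il2rb, an interleukin receptor chain, 1.45 TPM in DKO and 4.51 TPM in WT (-1.18 ± 0.17), and Ncr1, an NK cell receptor, 0.951 TPM in DKO and 3.35 TPM in WT (-1.17 ± 0.23). Groups were apart for all 5. The defining T cell gene Cd3e was near 0 throughout, at 0.0557, 0.333 and 0.204 TPM in DKO and 0.151, 0.160 and 1.23 TPM in WT. Of the 17 genes, 6 had a difference above 0, up to 0.59 ± 0.25 for Cd4, the coreceptor of helper T cells (adjusted p = 0.2035). Cd4 had 4.23, 5.81 and 4.68 TPM in DKO, against 3.51, 2.63 and 2.63 TPM in WT, without overlap, and was not called. Cd8a, the coreceptor of cytotoxic T cells, had 1.20, 1.52 and 2.61 TPM in DKO and 0.851, 0.777 and 1.51 TPM in WT, with overlap. The 28 genes of the list in the files, 6 of them under 1 TPM in all 6 libraries, summed to 210, 185 and 131 TPM in DKO, against 289, 298 and 285 TPM in WT, without overlap. Against Chd8 KO, Trbc1 and Tcf7 were higher in DKO (1.44 ± 0.18 and 1.01 ± 0.20). In that test 9 of the 17 genes were higher and 1 lower, where 6.32% of all genes were higher and 4.21% lower. Lck lost its call when WT replicate 1 or 2 or any DKO library was left out, and Ncr1 without WT replicate 2 or DKO replicate 2. The 5 falls were 3 without WT replicate 2 or DKO replicate 2 and 1, Trbc1, with WT replicate 3 as the only WT library. Of 27 lymphoid priming genes Tcf7 and Lck fell and 0 rose (median -0.28, beside 1.77% of all genes lower). Without WT replicate 3, 3 fell and 1 rose, and with it as the only WT library 0 fell. The count was 1 without WT replicate 1 or any 1 DKO library. Of 17 Wnt and beta-catenin target genes 1 fell, again Tcf7. Without WT replicate 3, 2 fell and 1 rose, and with it as the only WT library 0 fell.

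Of 18 B cell genes, 0 changed by limma (unadjusted p under 0.05 for 1 higher and 1 lower; median -0.49), and Blk, a B cell kinase, stood at 0.594, 1.08 and 1.46 TPM in DKO and 6.41, 2.73 and 3.53 TPM in WT (-1.31 ± 0.35, adjusted p = 0.0585). Immunoglobulin gene segments were looked at after their values were seen. The variable segments, which are joined in B cells and abundant in plasma cells, summed to 1809, 1882 and 2949 TPM in DKO, against 6875, 5548 and 3929 TPM in WT. The groups did not overlap. Of 174 such segments tested, 9 fell and 0 rose, where 1.77% of all genes fell; 150 had a difference below 0 and the median was -1.56. Ighv1-85 was listed at 0 in all DKO libraries, against 8.63, 12.7 and 19.3 TPM in WT (adjusted p = 0.000109), and Igkv4-55 was at 0.206 TPM or less in DKO, against 25.1, 36.9 and 66.4 TPM in WT. The kappa constant gene Igkc had 713, 850 and 1244 TPM in DKO, against 3125, 2846 and 1873 TPM in WT (-1.49 ± 0.79, adjusted p = 0.302). Jchain, which links secreted antibodies, had 108, 100 and 155 TPM in DKO, against 338, 337 and 217 TPM in WT (-1.29 ± 0.76, adjusted p = 0.356). Neither passed, though the groups did not overlap for either. The segments summed on average to 3374 TPM in Chd8 KO and 1979 TPM in P53 KO.

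Myeloid, stem cell and stromal lists gave few calls, beside 3.46% of all genes called higher and 1.77% lower. Of 29 myeloid progenitor genes 1 rose, Csf2ra, the receptor chain for GM-CSF, with 90.1, 86.6 and 89.8 TPM in DKO, against 37.8, 29.1 and 50.4 TPM in WT (1.20 ± 0.19, adjusted p = 0.00644). The groups lay apart, and Chd8 KO averaged 75.2 TPM (DKO minus Chd8 KO 0.24 ± 0.19, adjusted p = 0.461). The count for the list was 3 higher without WT replicate 3, and 0 higher and 1 lower with it as the only WT library. Of 30 macrophage and dendritic cell genes 1 rose, Cd68. The count was 4 without WT replicate 3, and 0 without any 1 of the other DKO and WT libraries, under both other scalings and with WT replicate 3 as the only WT library, where 1 was lower. Of 47 hematopoietic stem cell genes 2 rose: Tek, the angiopoietin receptor, with 14.0, 10.9 and 15.7 TPM in DKO, against 6.53, 6.68 and 5.42 TPM in WT (1.00 ± 0.17, adjusted p = 0.00754), and Txnip, which restrains glucose uptake (0.62 ± 0.16, adjusted p = 0.046). With WT replicate 3 as the only WT library 0 of these genes rose. Txnip lost the call when WT replicate 1 or 2 or DKO replicate 1 or 3 was left out, and under both other scalings. Of 25 eosinophil, mast cell and basophil genes 1 fell, the basophil protease gene Prss34 (-1.75 ± 0.45, adjusted p = 0.0478), which lost the call when any library but DKO replicate 1 was left out. The list summed to 3594, 707 and 1394 TPM in DKO and to 1273, 2706 and 2251 TPM in WT. Of 19 mature neutrophil and monocyte genes 0 changed by limma (unadjusted p under 0.05 for 0 higher and 6 lower; median -0.34), and 9 fell with WT replicate 3 as the only WT library. S100a8, a calcium-binding gene of neutrophils, had 5.39, 1.40 and 2.44 TPM in DKO and 16.3, 4.31 and 253 TPM in WT. Of 17 endothelial and stromal markers 0 changed by limma (0 at an unadjusted p under 0.05; median 0.09).

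Lists of the mitochondrion and the nucleolus had medians of 0.14 to 0.20, against 0.09 for all genes, of which 3.46% were called higher and 1.77% lower. Of 78 mitochondrial ribosomal protein genes 6 rose and 1 fell (median 0.14), among them Mrps15, with 106, 110 and 111 TPM in DKO, against 78.4, 85.4 and 79.2 TPM in WT (0.42 ± 0.06, adjusted p = 0.00423), while Mrpl27 fell (-0.37 ± 0.07), a call lost without WT replicate 1 or DKO replicate 2 or 3. Of 78 nuclear oxidative phosphorylation genes 6 rose and 2 fell (median 0.14). Ndufa7, of complex I, averaged 306 TPM in DKO and 235 TPM in WT (0.38 ± 0.06), whereas Ndufb7, also of complex I (-0.65 ± 0.11), and Cox8a, of complex IV (-0.45 ± 0.07), fell. Of 55 ribosome biogenesis genes 4 rose and 0 fell (median 0.20): Pes1, Noc3l, Utp4 and Wdr43, all assembly factors of the ribosome, by 0.34 to 0.49. Under median-of-ratios scaling 1 of the mitochondrial ribosomal, 0 of the oxidative phosphorylation and 0 of the ribosome biogenesis genes rose, and under quantile normalization 2, 6 and 1. With WT replicate 3 as the only WT library, 9, 6 and 1 rose. Without 1 library the 3 counts of rises ranged from 1 to 8, 1 to 8 and 0 to 2, and all 3 were at most 1 without DKO replicate 2 or 3. Of 26 glycolysis genes 0 changed by limma (unadjusted p under 0.05 for 3 higher and 1 lower; median -0.004).

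Repair, chromatin, death and stress genes added single members, beside 3.46% of all genes called higher and 1.77% lower. Of 44 double-strand break repair genes 2 rose: Mdc1, the scaffold that binds phosphorylated H2AX, with 86.4, 85.7 and 80.5 TPM in DKO, against 49.1, 46.5 and 45.7 TPM in WT (0.83 ± 0.09, adjusted p = 0.000705), and Xrcc4, the partner of DNA ligase IV in end joining, with 20.7, 20.8 and 20.9 TPM in DKO, against 11.1, 10.8 and 10.1 TPM in WT (0.90 ± 0.10, adjusted p = 0.000841). Both kept the call under every alternative run, averaged 92.7 TPM and 20.2 TPM in Chd8 KO, and exceeded P53 KO by 0.90 ± 0.09 and 0.91 ± 0.10. Of 32 H3K4 and H3K27 methylation genes 1 fell, Phf19, a cofactor of the Polycomb complex PRC2 (-1.01 ± 0.19), and without WT replicate 3 another 2 of them were called higher. With WT replicate 3 as the only WT library 0 were called. Of 11 pro-apoptotic BCL-2 family genes 1 fell, Bok (-1.13 ± 0.24, adjusted p = 0.0246), which was also lower than in Chd8 KO (-1.23 ± 0.24), and of 5 anti-apoptotic members 0 changed by limma (1 higher at an unadjusted p under 0.05). Phf19 lost the call without WT replicate 1 or DKO replicate 3, and Bok without WT replicate 1 or 2 or DKO replicate 1 or 2. Among 28 genes of the unfolded protein response and related stress pathways, Ddit3, which encodes the stress factor CHOP, rose (0.57 ± 0.13) and the chaperone gene Hsp90b1 fell (-0.54 ± 0.11). DKO minus Chd8 KO was 0.80 ± 0.13 for Ddit3 and -0.67 ± 0.11 for Hsp90b1, both past the test. Ddit3 lost its call against WT when any library but WT replicate 3 was left out, and Hsp90b1 without WT replicate 2 or DKO replicate 1 or 3.

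Interferon-stimulated genes differed widely among the WT libraries. Immediate early genes such as Jun and Fosb differed among the WT libraries and more widely among the P53 KO libraries. Of 28 immediate early genes, which answer to stimulation and to tissue handling within minutes, 0 changed by limma (unadjusted p under 0.05 for 1 higher and 5 lower), with a median of -0.40. Jun had 17.4, 12.7 and 8.52 TPM in DKO, against 121, 88.5 and 242 TPM in WT (-3.37 ± 0.92, adjusted p = 0.0623). Fosb had 0.58, 0.384 and 0.438 TPM in DKO, against 18.84, 13.05 and 57.14 TPM in WT (-4.11 ± 1.37, adjusted p = 0.11). Groups were far apart for both. For 13 of the 28 genes DKO lay wholly below WT, against 9.12% of all genes. Chd8 KO had 42.6, 35.7 and 35.6 TPM of Jun and 6.22, 1.70 and 1.62 TPM of Fosb. P53 KO varied widely, with 118, 399 and 12.8 TPM of Jun and 11.8, 181 and 0.208 TPM of Fosb, where the last of each is the P53 KO library from the run of the other genotypes. In the fit of the DKO and WT libraries alone 7 fell, where 222 of all 13162 genes fell. Jun and Fosb were among the 7 (limma adjusted p = 0.0143 and 0.0145). In the fit of the 10 libraries of 1 run 9 fell, where 328 of all 13162 genes fell. Without WT replicate 3, 0 of the 28 immediate early genes were called. Of 61 interferon-stimulated genes 1 fell, beside 1.77% of all genes. It was Ifi47, an interferon-induced GTPase (-0.57 ± 0.14, limma adjusted p = 0.0474), which lost the call whichever library was left out. The median was 0.05 and turned to -0.04 under median-of-ratios scaling. Without WT replicate 3, 22 of them rose and 0 fell, where 545 of all 13162 genes rose and 258 fell. The list median was then 0.41, and it was -0.816 with WT replicate 3 as the only WT library. Ifit1 had 10.1, 11.8 and 11.1 TPM in DKO and 3.38, 2.32 and 26.1 TPM in WT, so DKO lay between the WT libraries. Irf7, a regulator of the interferon response, had 39.1, 40.5 and 35.6 TPM in DKO and 18.2, 12.3 and 118 TPM in WT. The part of WT replicate 3 in these lists was not tested further.

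**Figure D5:**
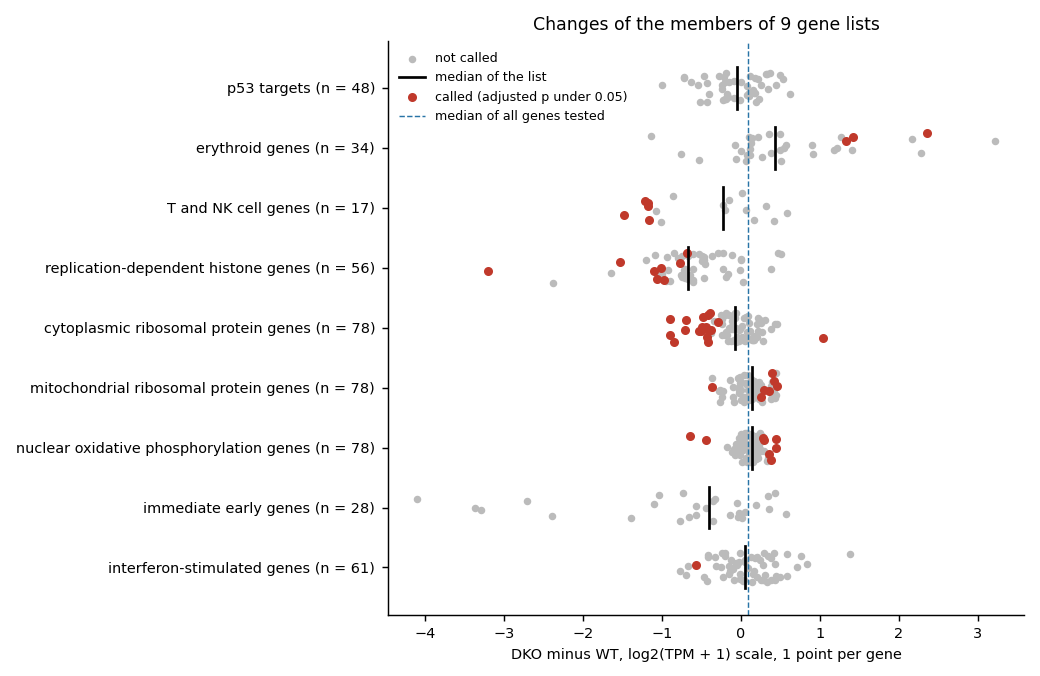
Difference between DKO and WT (horizontal axis, log2(TPM + 1) scale) for the members of 9 gene lists, 1 point per tested gene, called genes in red, the list median as a black bar and the median of all genes (0.09) as a dashed line. Histone genes lie mostly below 0 with 8 called, ribosomal protein genes have 17 called falls and 1 called rise, and the widely spread immediate early genes have no call.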

How the data were processed

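The deposited files give TPM per transcript, 1 file per library; TPM sums to 1000000 in each library, so read depth is not kept and no interval from counts can be given. Per the submitters' processing notes, reads were handled on GRCm38 (mm10) with tools that include Trim Galore 0.4.2, STAR 2.6.1e and featureCounts 1.6.2, without stated roles. The tool that made the TPM and the strand of the libraries are not given in the sources used here. TPM of 105129 transcripts were summed to 33641 gene symbols. The 13162 genes whose average over the 12 RNA libraries reached 1 TPM entered a limma fit (version 3.58.1, R 4.3.3) of log2(TPM + 1), as 4 genotype means with a mean-variance trend and 8 residual degrees of freedom, and p-values were adjusted by Benjamini-Hochberg over all tested genes. Values marked ± with a difference are standard errors. The ATAC-seq and CUT&RUN samples were not used here, and some named genes are not reported here.

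The comparison, the gene lists and the alternatives were chosen with earlier results of these data known. Named genes were 10 fixed genes, the 15 largest rises and falls among called genes that reached a mean of 5 TPM in 1 group and whose groups do not overlap, without predicted models and without variable, diversity and joining segments of antigen receptors (the constant region gene Trbc1 was kept), and per list up to 6 called members, or up to 3 of smallest p where none was called. Neighbours of Trp53, receptor segments, and library markers such as S100a8, Ifit1, Irf7 and Ppbp stand outside this rule and were chosen after their values were seen. Positions and promoters came from RefSeq (GRCm38.p6), which matched 12699 of the tested symbols. Simulated data with known changes were used to check the code. Alternatives varied the pseudocount, the filter, the scaling, the samples, the variance model, covariates and the gene summary.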

Additional observations from a re-analysis of the deposited data

How the results depend on the processing

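The 688 genes called (455 higher and 233 lower in DKO) moved by more than 1.5 times under 3 settings and when any 1 library but WT replicate 3 was left out. With library weights 2274 were called (1553 higher, 721 lower), with summed Y-linked RNA as a covariate 360 (267 higher, 93 lower), and with WT replicate 3 as the only WT library 247 (140 higher, 107 lower), where that lone library was assumed to vary like the other groups. Leaving out 1 library gave 283 to 803 called, 157 to 545 higher and 113 to 258 lower. Median-of-ratios scaling gave 252 higher and 380 lower, and the DKO and WT libraries alone gave 290 higher. The 10 libraries of 1 run, which include all DKO and WT libraries, gave 999 called (671 higher, 328 lower). Of 79 called genes among 119 named, 28 were called under every alternative run, 43 under every omission of 1 library, and 0 reversed. Values of genes not called turned sign with WT replicate 3 as the only WT library for Bgn (0.158), Ddx3y (0.082), Eif2s3y (0.154), Uty (0.247), Mcl1 (-0.069), Mdm2 (-0.073) and Pmaip1 (-0.493), with the Y-linked covariate for Bgn (0.09) and Pmaip1 (-0.095), and without WT replicate 3 for Ly6a (0.124; leaving out 1 library gave -0.468 to 0.124). The causes were not tested. Same-numbered DKO and WT libraries had correlations of -0.0571, 0.0038 and -0.0123 in their deviations from the group means. Differently numbered ones had -0.0466 to 0.0676. No shared effect of the number was visible, but this cannot show whether same-numbered libraries were prepared together. The replicate block gave 537 calls (350 higher, 187 lower). TPM keep no depth, so the precision of low genes is unknown.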

Other observations

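Some of the widest differences were in features left out of the named genes, and they were chosen after their values were seen. Trgj1 is a joining segment of the T cell receptor gamma locus. It had 20.6, 74.5 and 51.8 TPM in DKO, against 4.34, 0 and 2.40 TPM in WT. The difference was 4.07 ± 0.72 (limma adjusted p = 0.0105). Of 32 T cell receptor segments tested, 2 rose and 0 fell, where 3.46% of all genes rose and 1.77% fell. The median of the 32 was -0.02, and 18 had a difference below 0. The summed level of these segments was 195, 401 and 281 TPM in DKO and 352, 262 and 417 TPM in WT, and overlapped.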
